A study of Gallus gallus with 2 samples.

Results

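Interferon regulatory factors (IRFs) were examined in DT40 cells with and without the histone variant H2A.Z. DT40 is a chicken B lymphoma line derived from the bursa of Fabricius, the organ in which birds make their B cells. The members were all probe sets that the array's annotation assigns to IRF1, IRF2, IRF4, IRF5, IRF7, IRF8 or IRF10. All 7 genes were found, with 11 probe sets, among 13051 genes and 38439 non-control probe sets. IRF10 was matched by its gene identifier, since both the array's annotation and the RefSeq gene table list that gene as IRF9, and the latter gives IRF10 as its synonym. The chicken IRF7 gene likewise carries the older synonym IRF3 in that table.

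The 2 arrays compared a wild-type DT40 clone with a clone lacking the genes of both H2A.Z-1 and H2A.Z-2 (here called the knockout). In the second clone H2A.Z-2 was absent constitutively, and its only H2A.Z-1 was a transgene that tetracycline represses. These cells had been kept in tetracycline for 3 days. The labels do not settle whether the wild-type culture received the drug, and no array of the knockout clone without it was analysed here, so drug, clone and genotype cannot be told apart. Since each group had 1 array, differences have no replicate check and no test was made; the precision is limited by the number of arrays. Values are MAS5 signals, a linear measure of brightness per probe set. A gene was called measured where a probe set exceeded a floor of 58.3, the median of all signals, on at least 1 array. By this rule 9562 of the 13051 genes on the array were measured, and 8015 of them exceeded the floor on both arrays. Counts of detected genes below are to be read beside these. Ratios are log2 differences, knockout minus wild type.

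IRFs are transcription factors that share an N-terminal DNA-binding domain with a conserved cluster of tryptophans and bind elements of the GAAA type in interferon genes and in interferon-stimulated genes. IRF1 is an activator of such genes and IRF2 binds the same sites, often as its antagonist. IRF5 and IRF7 are activated below Toll-like receptors and other sensors of nucleic acids. IRF4 and IRF8 are factors of blood cells, known from mouse and human B cells, where they bind composite elements together with the ETS factor PU.1 (gene SPI1) and guide germinal centre and plasma cell programmes. IRF10 is known from birds and fish.

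Both targeted genes were checked first. H2AFZ, which encodes H2A.Z-1, read 27331 in wild-type cells and 387 in knockout cells. H2AZ2, which encodes H2A.Z-2, read 18244 and 17.6, the latter under the floor. Whether these probes lie inside the deleted parts, or detect the transgene, was not examined. As to the labelled cell type, 8 of 9 B cell markers on the array were above the floor on both arrays. The summed signal of the 9 was 49992 in wild type and 29554 in the knockout, of which CD74 gave 14969 and 5510. Of the 8, 1 was higher in the knockout and 7 lower, with a median log2 ratio of -0.70. At least 1.5-fold lower were 5 of them, beside 15.9% of all measured genes. Of 8 T cell markers, 5 were above the floor in wild type and 3 in the knockout, with sums of 13490 and 4834 that came mostly from CD3D (12407 and 4162), while CD4 was under the floor on both. Of 5 myeloid markers 3 were above the floor on either array, with sums of 273 and 297. Of 3 erythroid and thrombocyte markers 0 were above it in wild type and 2 in the knockout (sums 53.4 and 204), and of 7 fibroblast markers 5 and 4 (sums 807 and 891). No marker was at exactly 0. The part of these shifts in the results below was not tested.

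Of the 7 IRF genes, 6 were measured and IRF10 was not, beside 9562 of 13051 genes over the whole array. The 6 did not move as a block. IRF8 was 4.69-fold lower in the knockout, while IRF4, the other blood cell factor named above, differed by 1.06-fold. The other 4 were higher, from 1.35-fold for IRF5 to 2.97-fold for IRF1. At a threshold of 1.5-fold, 3 members were higher (IRF1, IRF2 and IRF7), against 12.6% of all 9562 measured genes. At the same threshold 1 was lower (IRF8), against 15.9% of all measured genes. At 2-fold, 1 member was higher (IRF1), where the share over all genes was 3.94%, and 1 was lower (IRF8), where it was 6.7%. The median log2 ratio of the 6 was 0.51, beside 0.02 for all measured genes. With so few members these counts describe the genes one by one and say nothing particular about the family. When the arrays were aligned by their medians, the median of all genes moved from 0.02 to 0.17 and the shares at 1.5-fold became 19.6% higher and 12.0% lower. The direction of each of the 6 members was the same under that and each of the other 8 processing choices that gave it a value. Most of these choices were no check on a member with 1 measured probe set. Only rescaling the arrays or adding a constant to all signals (a pseudocount) moved its ratio, and the other choices left it unchanged or gave none.

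**Figure D1:**
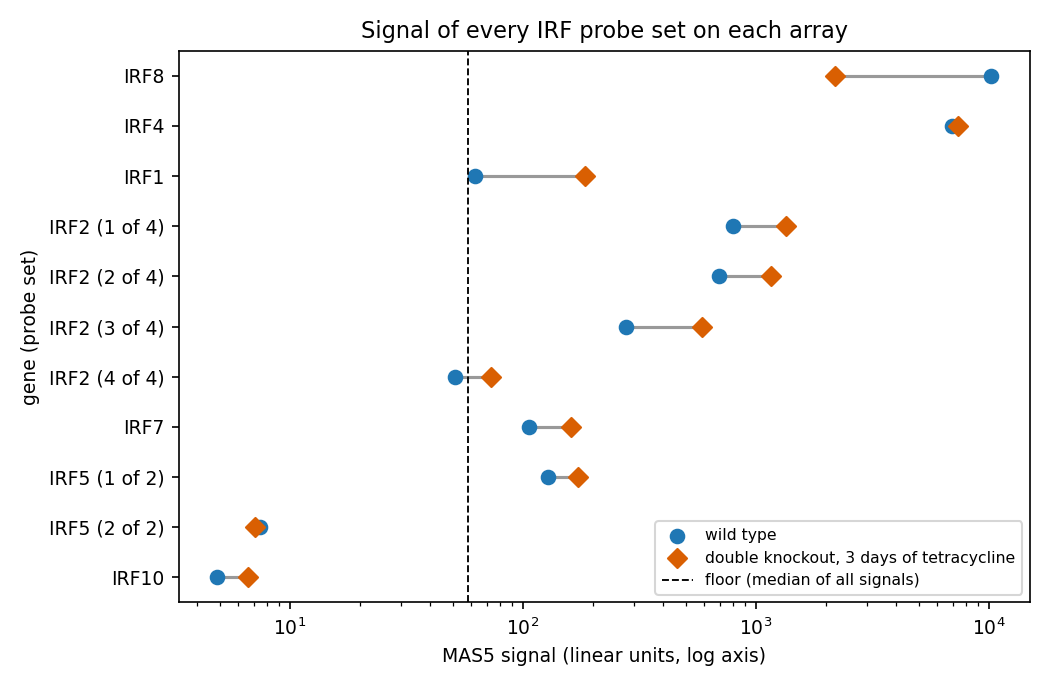
MAS5 signal (log axis) of each of the 11 IRF probe sets on the wild-type array (circles) and the knockout array (diamonds), with the floor of 58.3 as a dashed line. IRF8 is the only one above the floor that is dimmer in the knockout, at 2182 against 10228.5, and the probe set of IRF10 and the dim one of IRF5 lie under the floor on both arrays.

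IRF8 (gene 396385, chromosome 11 in the GRCg7b gene table) encodes the factor that supports germinal centre B cells and, in mammals, monocyte and dendritic cell development. Its probe set read 10228.5 in wild-type cells and 2182 in knockout cells. The knockout value was 21.3% of the wild-type value and still far above the floor of 58.3, so the signal was lower but not lost. In such bulk RNA, fewer cells with the transcript and less of it per cell cannot be told apart. The log2 ratio was -2.23. Of 8015 genes that exceeded the floor on both arrays, it stood at rank 21 from the lowest, and among the 3700 of these with a mean signal of at least 1000 at rank 4. Genes at least 4-fold lower made up 0.732% of all measured genes.

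The error that could be estimated was that between probe sets of a gene. In 2240 genes for which exactly 2 probe sets exceeded the floor in wild type and knockout alike, the log2 ratios had an SD of 0.41 per probe set, and in the 449 of these pairs with both mean signals at 1000 or more the SD was 0.25. It holds probe error and differences between isoforms, not the spread between cultures or clones. The ratio of IRF8 was 5.45 times the first of these SDs. IRF8 had a single probe set, so its value could not be checked against another. Across genes that had a pair, 118 were at least 2-fold lower by the brighter probe set, and the other probe set was also lower in 102 of them and at least 2-fold lower in 55. On the higher side, 61 were at least 2-fold higher by the brighter probe set, and the other was higher in 56 and at least 2-fold higher in 18. At 1.5-fold, 227 were higher by the brighter probe set, and the other was also at least 1.5-fold higher in 92. IRF1 and IRF7, each with a single probe set, are on that side.

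IRF4 (gene 374179, chromosome 2) encodes the factor that drives B cell activation and plasma cell fate. It read 6921 in wild-type cells and 7367 in knockout cells. Both arrays thus gave nearly equal, bright values, and the log2 ratio was 0.09, within the probe set SD. The ratio of IRF4 was 2.32 above that of IRF8 on the log2 scale, where the difference of 2 probe sets of 1 gene had an SD of 0.58. IRF4 was read by a probe set of the type common to several transcripts (name ending in _a_at), and no other probe set was assigned to it.

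**Figure D2:**
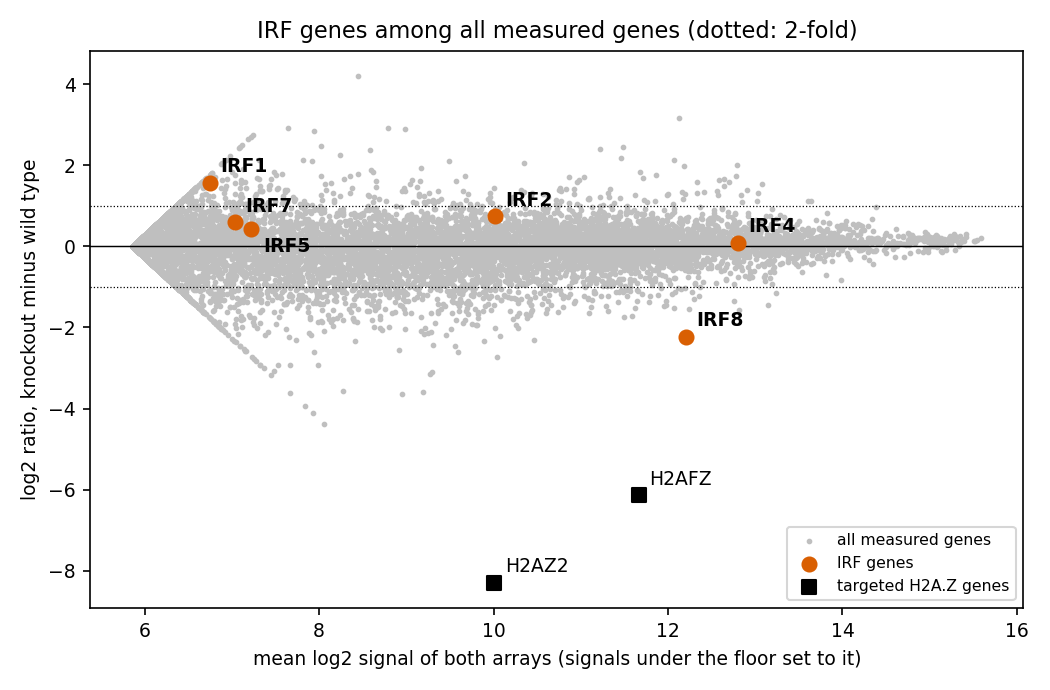
Log2 ratio (knockout minus wild type) against the mean log2 signal of both arrays for all 9562 measured genes (grey), the 6 measured IRF genes (orange) and the targeted genes (black squares), with dotted lines at 2-fold. IRF8 lies at -2.23 among bright genes, where few others are as low, while IRF1, IRF5 and IRF7 lie among dim genes, where ratios spread widely.

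IRF1 and IRF2, which compete for the same elements in mammalian cells, were both higher in the knockout. IRF1 (gene 396384, chromosome 13) read 62.2 in wild-type cells, just above the floor, and 185 in knockout cells. Its log2 ratio was 1.57, the rank 61 from the highest among the same 8015 genes. The gene was thus barely detected in wild type and dim in the knockout, and its ratio depends on how low signals are treated: with a pseudocount equal to the floor it was 1.01. Pairs of probe sets of which the dimmer had a mean signal under 233 had an SD of 0.49 per probe set. A single probe set was assigned to IRF1.

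IRF2 (gene 396115, chromosome 4) had 4 probe sets, more than any other member, and each was brighter in the knockout. The first gave 800 in wild type and 1341 in the knockout. The second gave 695 and 1164, and the third 277 and 589. The dimmest gave 51.0, under the floor, and 72.7. Their log2 ratios ran from 0.32 to 1.09 with a median of 0.74 and an SD of 0.32 over the 4 probe sets. The lowest of these, from the dimmest probe set, is a bound, so the range and the SD depend on the floor. The gene's value, from the brightest probe set, was 0.75 or 1.68-fold. The third and the dimmest were designed from the same deposited sequence, so the 4 are not independent readings. IRF2 is the member whose direction was read repeatedly, but by probes of 1 gene on the same pair of arrays. IRF2BP2, which encodes a corepressor that binds IRF2, went the same way at 694 and 1131, respectively, a log2 ratio of 0.70. IRF2BP1 and IRF2BPL were not analysed here.

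IRF7 and IRF5, the members that act below Toll-like receptors, were dim on both arrays. IRF7 (gene 396330, chromosome 5), an inducer of type I interferon, read 107 in wild-type and 161 in knockout cells. Its 1.505-fold difference sat at the threshold, and it was under it with a pseudocount (log2 ratio 0.41). IRF5 (gene 430409, chromosome 1) had 128 and 173 at one probe set, a log2 ratio of 0.43 or 1.35-fold, under the 1.5-fold threshold. At its other probe set, with 7.46 and 7.05, IRF5 was under the floor on both arrays, so its 2 probe sets did not give the same picture of whether the gene was detected. Both ratios were of the size of the probe set SD for dim probe sets. IRF10 (gene 395243, chromosome 20), induced by interferon in chicken cells, had signals of 4.89 and 6.64, under the floor on both arrays, and no ratio is given.

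**Figure D3:**
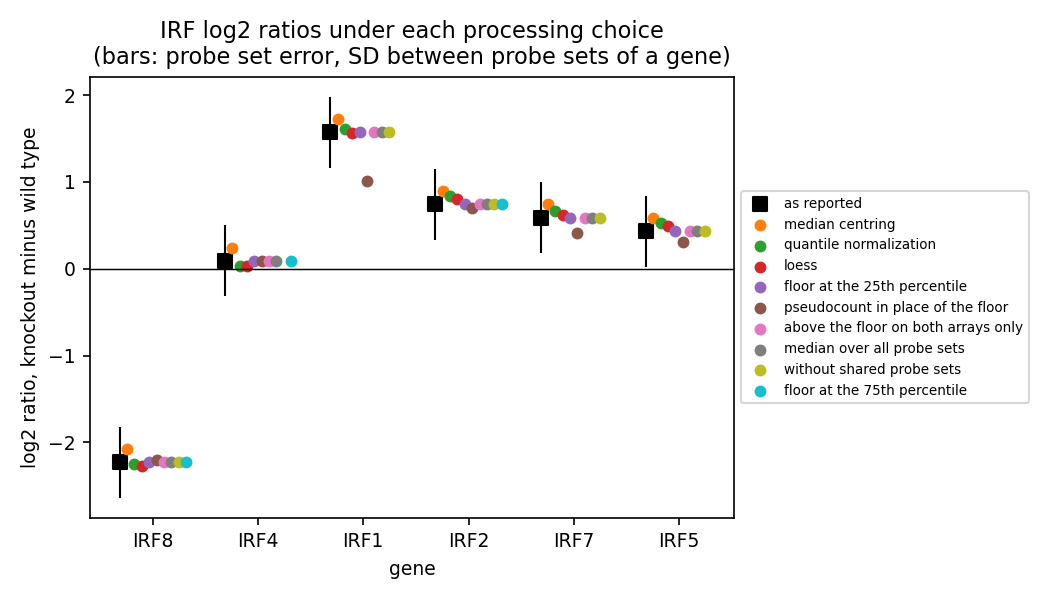
Log2 ratio of each measured IRF gene as reported (black square, with the probe set SD of 0.41 as a bar) and under 9 other processing choices (coloured points). IRF8 stays between -2.27 and -2.08, IRF4 between 0.03 and 0.24, and IRF1 drops to 1.01 with a pseudocount. For members with 1 measured probe set, choices other than the scalings and the pseudocount left the value unchanged or gave none.

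The genes around the family were described from lists of its upstream signals, partners and targets. Of 9 interferon names, 2 were matched on the array by symbol, and neither gene was measured. IFNG had 53.5 in wild type and 9.97 in the knockout, and IFNW1 had 1.01 and 4.07, all under the floor. The other names found no match, so nothing can be said of those interferons. Of 22 names in the list of interferon receptors and JAK-STAT signalling, 16 were on the array and 15 measured. In it 4 genes were at least 1.5-fold higher and 0 lower, beside 12.6% and 15.9% of all measured genes. The median log2 ratio of the list was 0.19. The 4 were IFNAR1, a chain of the type I interferon receptor (1025 in wild type and 1838 in the knockout), the kinase JAK1 (3737 and 6186), the phosphatase PTPN11 (1701 and 2579) and STAT3 (778 and 1191). The other probe set of IFNAR1 gave a log2 ratio of 0.33, under that threshold. JAK1 had 3 probe sets that went both ways, from -0.69 to 0.99. STAT3 was the only STAT gene of the list found, and its 4 probe sets ran from 0.02 to 0.72. IFNAR2, the other chain of that receptor, was at -0.19, and the feedback inhibitors SOCS1 and SOCS3 were at -0.52 and 0.31.

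Among sensors, adaptors and kinases that lead to IRF activation, 21 of 27 genes on the array were measured, with a median of -0.02. At least 1.5-fold higher was 1 gene and lower were 2, beside 12.6% and 15.9% of all measured genes. TLR7, the endosomal receptor for single-stranded RNA that signals to IRF5 and IRF7, stood far from the rest. It had 441 in wild type and 31.3, under the floor, in the knockout, and was thus at least 7.58-fold lower. It had a single measured probe set. Its adaptor MYD88 had 966 and 628, a log2 ratio of -0.62, and -1.22 at a second probe set. TRAF3, a ubiquitin ligase between sensors and IRF kinases, was the gene on the higher side, from 101 to 184, with 3 probe sets from 0.25 to 1.11. The IRF kinase TBK1 was at -0.40 with another probe set at -1.28, and its relative IKBKE was near the floor at -0.20. The counts rest on the brightest probe set of each gene, and others differed. IRAK4 was at -0.02 with another probe set at -1.59, and CGAS at -0.19 with others from -0.70 to -0.55. On the higher side TIRAP was at 0.15 with another at 0.56.

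Interferon-stimulated genes were dim or not detected in many cases. Of 25 genes on the array, 13 were measured, beside 9562 of 13051 genes over the whole array. MX1, RSAD2 and EIF2AK2, antiviral effectors that interferon induces strongly, were under the floor on both arrays. Of the 13, 2 were at least 1.5-fold higher, 2 were lower and 9 had values between, with a median of 0.13. Over all measured genes, 12.6% were that much higher and 15.9% lower. Of the 9, only HELZ2 (0.13), PML (-0.07) and UBA7 (0.36) exceeded the floor on both arrays. The values of the others are bounds, so those genes are not shown to lie within 1.5-fold. IFITM5, of a family of membrane proteins, read 67.8 in wild-type and 241 in knockout cells, and was the only one of the 13 at 2-fold (log2 ratio 1.83). Whether IFITM5 itself responds to interferon was not examined, so its place in this list is open. IFI6 had 76.1 and 130. On the lower side were the RNA editing enzyme ADAR, with 576 and 381, and PARP12, with 94.9 and 8.08, under the floor, at least 1.63-fold lower. ADAR, at 1.509-fold, sat at the threshold, and the other measured probe set of PARP12 gave a value under it (-0.52). OASL, DTX3L, PARP14 and CMPK2 passed the floor in the knockout only, with signals of 58.5 to 84.1 there. In wild type only, besides PARP12, IFIT5 (58.7 and 11.6) and SAMD9L (71.4 and 18.7) passed it.

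**Figure D4:**
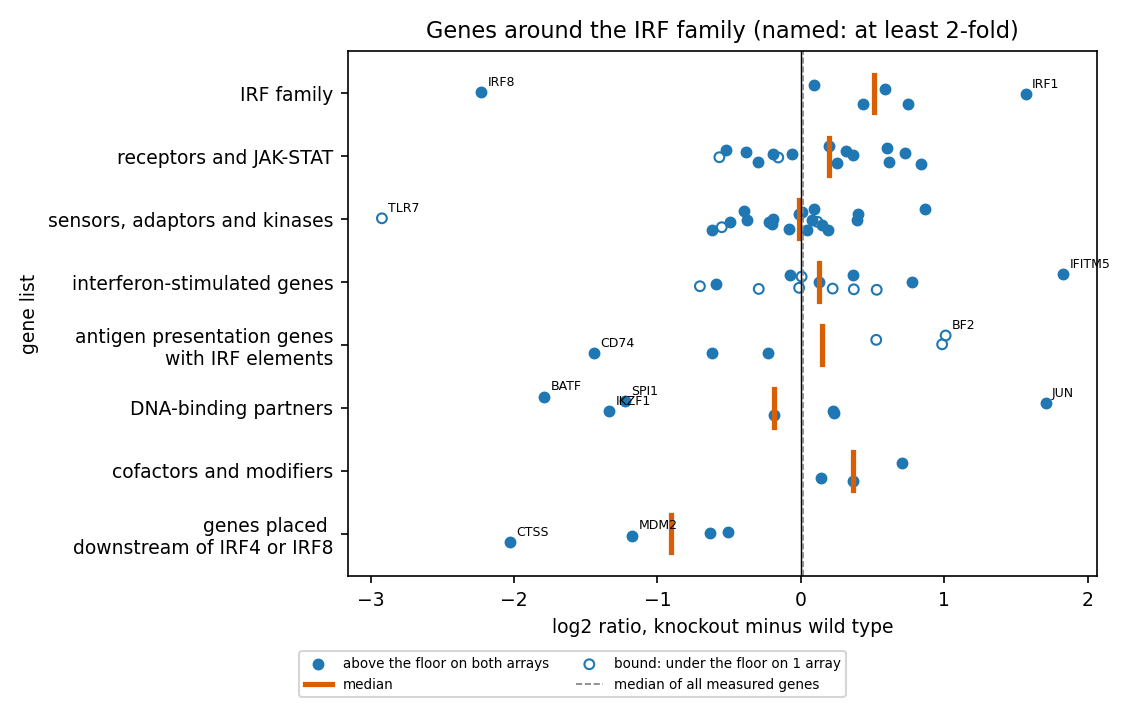
Log2 ratios (knockout minus wild type) of the measured genes of the IRF family and of 7 lists around it, with medians in orange, bounds as open circles and the median of all measured genes as a dashed line. IRF8, TLR7, BATF, IKZF1, SPI1, CD74, CTSS and MDM2 are at least 2-fold lower, and IRF1, JUN, IFITM5 and BF2 at least 2-fold higher.

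Of the factors with which IRF4 and IRF8 share DNA elements, 7 were measured. At least 2-fold lower were 3 of them, beside 6.7% of all measured genes, 1 was at least 2-fold higher, beside 3.94%, and 3 were within 1.5-fold. The list's median was -0.19. SPI1, which encodes PU.1, read 2748 in wild-type and 1174 in knockout cells, 2.34-fold lower, and its other probe set gave -1.28. IKZF1, the lymphoid zinc finger factor Ikaros, had 3113 and 1232, 2.53-fold lower, and -1.46 at its other probe set. BATF, which recruits IRF4 and IRF8 to AP-1 sites, had 260 and 75.2, 3.46-fold lower, at a single probe set. JUN, the usual partner of BATF at these sites, went the other way with 1163 and 3797, 3.26-fold higher. IKZF3 (-0.19), IKZF2 (0.23) and TCF3 (0.23) were within 1.5-fold by the brightest probe set. The other probe set of IKZF3 gave -0.64, past 1.5-fold lower. IRF8 and 3 of the DNA-binding partners were thus at least 2-fold lower in the knockout, while IRF4, which uses the same partners, was within 1.5-fold.

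Of genes placed downstream of IRF4 or IRF8 in mouse or human cells, 4 were measured and all 4 had lower signals, 3 of them at least 1.5-fold, with a median of -0.90. CTSS, the protease that trims the invariant chain, read 2503 in wild-type and 615 in knockout cells, 4.07-fold lower. MDM2, the ubiquitin ligase of p53, had 271 and 120, 2.26-fold lower, with -0.30 at its other probe set. BCL6, the repressor that defines germinal centre B cells, had 1790 and 1155, a log2 ratio of -0.63, and -1.004 at its other probe set. CYBB, a subunit of the phagocyte oxidase, was dim and at -0.51. PRDM1 and KLF4 were under the floor on both arrays. Of all measured genes, 48.5% were lower by any amount, 15.9% by at least 1.5-fold and 6.7% by at least 2-fold. The 4 genes are too few to set against these shares.

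Antigen presentation genes with known IRF elements went both ways. Of 10 genes on the array, 6 were measured, 2 at least 1.5-fold higher and 2 lower, with a median of 0.15. The shares over all measured genes were 12.6% higher and 15.9% lower. CD74, the invariant chain on which CTSS acts, read 14969 in wild-type and 5510 in knockout cells, 2.72-fold lower, and its 2 other probe sets gave -1.78 and -1.57. The class II gene BLB1 had 103 and 67.3. On the higher side, the class I gene BF2 had 38.6, under the floor, and 117, at least 2.01-fold higher, and the peptide transporter TAP2 had 52.3, under the floor, and 115.4, at least 1.98-fold higher. The genes on the higher side were thus near the floor. The class I and class II genes of birds have close relatives, and cross-hybridisation between them was not examined.

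Of the cofactors that bind IRFs or modify their action, 3 of 5 on the array were measured, with IRF2BP2 (0.70), the acetyltransferase EP300 (0.37, with other probe sets from -0.30 to 0.98) and COPS2 (0.14, with others from -0.99 to -0.19) all higher by the brightest probe set. Only the first was past 1.5-fold, a threshold that 12.6% of all measured genes passed on the higher side.

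The IRF genes lie on 7 different chromosomes, and their nearest measured neighbours in the gene order of GRCg7b were compared with them. Of 28 neighbours, 21 had values within 1.5-fold, 3 were at least 1.5-fold higher and 4 lower, with a median log2 ratio of -0.10. The shares over all measured genes were 12.6% higher and 15.9% lower. Among the 21, ACSL6, IL4, RASSF7 and MYLK2 passed the floor in the knockout only. Their values are bounds and do not place them within 1.5-fold. None of the 4 neighbours of IRF8 was lower by 1.5-fold. COX4I1 had 19384 in wild type and 20008 in the knockout, EMC8 had 6085 and 4788, ZDHHC7 had 1338 and 1185, and MTHFSD had 143 and 226. The low value at IRF8 was thus not found in these 4 measured neighbours. Genes that were not measured lay between: 8 were passed over on the side of MTHFSD and ZDHHC7, and 1 on the other side. Next to IRF1, by contrast, PDLIM4 had 238 in wild type and 43.1, under the floor, in the knockout (bound -2.03), and RAD50 had 521 and 237 (log2 ratio -1.14), opposite to IRF1 itself. The other 2 neighbours of IRF1, ACSL6 and IL4, were near the floor and on the same side as IRF1, with bounds of 0.30 and 0.51. Next to IRF5, TNPO3, LMF2 and STRIP2 had ratios of 0.47, 0.50 and 0.43, close to the 0.43 of IRF5, and NCAPH2 was at -0.11. All of these were under 1.5-fold, none far past the probe set SD of 0.41, and STRIP2 was near the floor (68.7 and 92.7). Of the 8015 genes above the floor on both arrays, 17.6% had a ratio at or above that of IRF5.

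**Figure D5:**
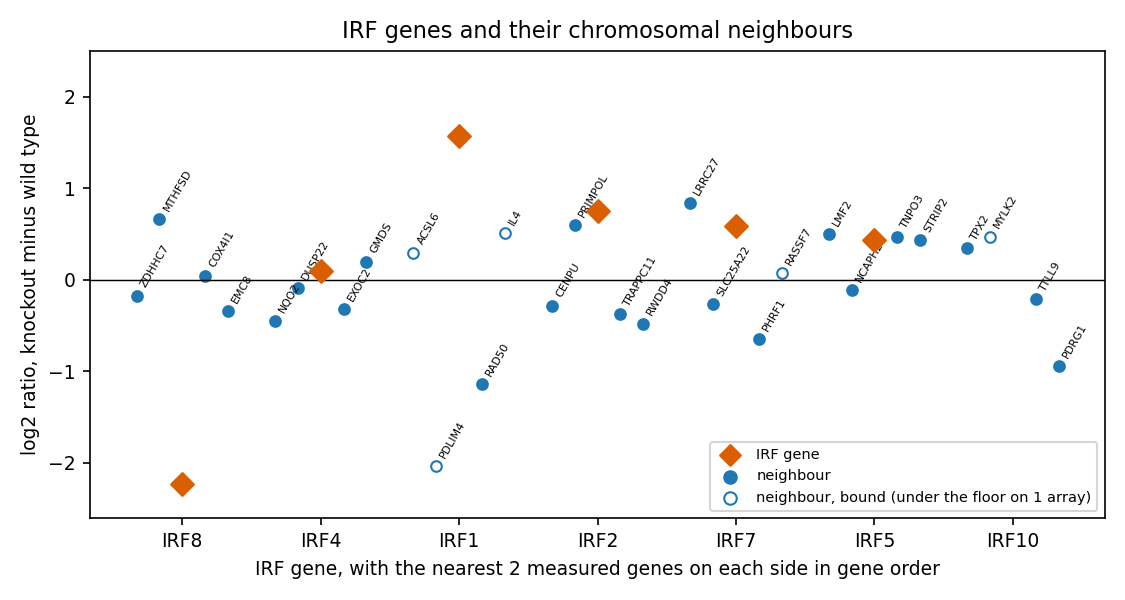
Log2 ratio (knockout minus wild type) of each IRF gene (diamonds) and of the nearest 2 measured genes on each side (circles, open where the value is a bound). The diamond of IRF8 at -2.23 lies below its 4 neighbours, which range from -0.35 to 0.66, and that of IRF1 at 1.57 lies above its own. IRF10 was under the floor and has no diamond.

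With 2 arrays, likeness to a member can only mean a similar ratio. Genes outside the family that exceeded the floor on both arrays were searched, leaving out those with placeholder names starting with LOC. Of these, the 3 with ratios nearest that of IRF8 over the 2 arrays were SMIM11, a small membrane protein (2330 in wild type and 499 in the knockout, log2 ratio -2.22), the adenylyl cyclase ADCY7 (357 and 77.9, -2.20) and the glucosamine-phosphate deaminase GNPDA2 (513 and 112, -2.20). Those nearest IRF1 were the choline transporter SLC44A1 (76.3 and 226, log2 ratio 1.57), the organic anion transporter SLCO4A1 (163 and 485, 1.57) and ASAP2, a regulator of ARF GTPases (80.1 and 236, 1.56).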

How the data were processed

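RNA of 2 DT40 cultures was hybridised to Affymetrix chicken arrays, 1 per culture. The deposited table holds a linear intensity per probe set. Per the submitters' processing notes the tool was MAS5; its version and scaling target, and the detection calls, are not given here. The 2%-trimmed mean was 500.2 on either array, so they were scaled alike. MAS5 scaling leaves trends with brightness in place, and labelling from the 3′ end makes values depend on RNA length.

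Genes were named from the platform's annotation, which gives 1 gene to 27168 non-control probe sets. Over all 38535 probe sets, controls included, it gives several genes to 177, which were not used, and none to 11180. Chromosomes, gene order and synonyms came from RefSeq genes of GRCg7b. The table names no build, so no coordinates are printed. Signals under the floor (50th percentile of non-control signals) were set to it, and log2 was taken. Each gene took the measured probe set whose mean log2 signal was highest. A ratio with 1 array under the floor is a bound. Computations used Python 3.11.15 with pandas 2.3.3 and were tested on simulated data.

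The groups came from the genotype labels. No test was possible with 1 array per group. The members and lists were chosen with earlier results of these data known. List names were matched by symbol only. Named genes were all members, both targeted genes, up to 4 genes at least 2-fold off per list and direction, STAT and IRF2-binding genes, neighbours, and the 3 genes nearest IRF8 and IRF1. Others, such as those at 1.5-fold, were chosen after their values were seen, as was the comparison of paired probe sets. The alternatives were 3 scalings, 2 floors, a pseudocount, only genes that exceed the floor on both arrays, the median over probe sets, and leaving out shared probe sets (_s_at, _x_at, _a_at). A planned comparison of protein sequences was not analysed here.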

Additional observations from a re-analysis of the deposited data

How the results depend on the processing

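Over the 9 alternatives, the ratio of IRF8 ran from -2.27 to -2.08, that of IRF2 from 0.70 to 0.90, that of IRF7 from 0.41 to 0.74 and that of IRF5 from 0.31 to 0.59. IRF1 ran from 1.01, with the pseudocount, to 1.72, under median centring. At a 75th percentile floor IRF1, IRF5 and IRF7 were no longer measured, so that 1 member was at least 1.5-fold higher, and IRF4 has no value without shared probe sets. The number at least 1.5-fold higher was 2 with the pseudocount and 4 under median centring, and 1 member was lower throughout. Over all genes, 1201 were at least 1.5-fold higher and 1522 lower, which became 1871 and 1145 under median centring, 2341 and 2425 at a 25th percentile floor and 490 and 806 at a 75th. The median of genes placed downstream of IRF4 or IRF8 was -1.33 at a 75th percentile floor. That of antigen presentation genes turned from 0.15 to -0.83 at that floor. It was -0.62 when both arrays had to exceed the floor, and both choices leave fewer genes. At a 25th percentile floor it was -0.23, where more genes were measured, 12099 against 9562 over the whole array. The part of added genes in that turn was not tested. The median of sensors turned to 0.14 under median centring, 0.004 after quantile normalization and 0.02 at the 25th percentile floor. That of interferon-stimulated genes turned to -0.07 at the 75th percentile floor and -0.003 without shared probe sets, and that of DNA-binding partners to 0.02 without shared probe sets. With the median over all probe sets, that of sensors was -0.20 and that of DNA-binding partners -0.41, lower than in the main setting. The remaining list medians kept their sign. No paired analysis was possible because each group has 1 array. Dim signals limit what can be said of IRF1, IRF5, IRF7, IRF10 and most interferon-stimulated genes.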

Other observations

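Among the 3700 genes with a mean signal of at least 1000 that exceeded the floor in wild type and knockout alike, the 6 with the lowest ratios were the targeted gene H2AFZ (-6.14), the carbonic anhydrase CA3B (-2.74), the ubiquitin-conjugating enzyme UBE2T (-2.30), IRF8 (-2.23), SMIM11 (-2.22) and CTSS (-2.03). The other targeted gene, H2AZ2, was under the floor in the knockout and so is not among them. IRF8 was the only transcription factor of these 6, and CTSS is also on the list of genes placed downstream of IRF4 or IRF8. That list was chosen with earlier results of these data known, so this overlap is not independent evidence. A link between IRF8 and CTSS was not tested.

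The ratio of 3′ to 5′ control signal, which rises as the labelled RNA gets shorter, was 1.03 in wild type and 1.07 in the knockout for GAPDH, and 1.23 and 1.46 for elongation factor 1-alpha, both transcripts of the cells. Some bacterial control pairs differed more between the arrays. The array's Gga-prefixed probe set pairs for dap and thr gave 2.45 and 3.20 in wild type against 5.91 and 5.01 in the knockout. DapX, ThrX and PheX gave 2.12, 2.40 and 1.34 against 4.28, 4.25 and 2.41. Other pairs for phe differed less, with 1.62 and 1.24 in wild type against 1.79 and 1.38 in the knockout. Pairs for lys went both ways, with 2.80 (LysX), 1.46 and 1.23 against 3.39, 1.26 and 0.96. Where the IRF probes lie along their transcripts was not examined. Whether the differences between the arrays in these controls touch the IRF values was not tested.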
